A study of Homo sapiens with 6 samples.

Results

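The heat shock factor target chaperones are 10 genes whose products fold, refold or hold proteins. They are HSPA1A, HSPA1B and HSPA8 (HSP70 family), HSPH1 (HSP110), HSP90AA1 and HSP90AB1 (HSP90), DNAJB1 (HSP40), HSPB1 (a small heat shock protein), and HSPD1 and HSPE1 (HSP60 and HSP10). They were taken by symbol, 10 of the 23204 symbols in each table. The 14 rows that carry these symbols were reduced to 1 row per gene, that of the greatest RPKM averaged across the 6 libraries. HSPD1 and HSPE1 work inside mitochondria, so 8 of the 10 products are cytosolic chaperones.

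The cells were HEK293T, a human embryonic kidney line that carries the simian virus 40 large T antigen and makes its own DDX3X, a DEAD-box RNA helicase. Control siRNA or DDX3X siRNA, each a commercial pool, was left on the cells for 48 h. In the plasmid arm, cells took up 5 µg of a plasmid for GFP or for one of 3 GFP fusions, GFP-WT DDX3X (the normal sequence), GFP-DDX3X G302V and GFP-DDX3X T275M, and were kept for 32 h before GFP-positive cells were collected by flow cytometry. The labels name the mutants T275M and G302V, but a figure legend in the study gives another mutant in place of T275M for these plasmid data, so the identity of that library rests on its label. The labels also mention a slightly shorter time beside 32 h. T275M and G302V are mutants of DDX3X associated with medulloblastoma, a childhood brain tumour. The ectopic protein was made after transient transfection, on top of the endogenous gene, and sorting is described for the plasmid arm alone. Each of the 6 groups holds 1 library. No difference between groups therefore has a replicate check, no p-value is given, and every 95% interval covers counting error only.

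DDX3X itself stood at 106.9 RPKM with control siRNA and 31.31 with DDX3X siRNA. It was 118.7 with GFP, 2894 with GFP-WT DDX3X, 3279 with T275M and 1906 with G302V. The depth behind the libraries, recovered from the RPKM values, ran from 43720000 reads (G302V) to 180870000 (DDX3X siRNA), which is 2.68 times the depth of its control. The labels also call the cells neuronal. Of 10 neuron markers, 5 were below 1 RPKM in all 6 libraries, RBFOX3, SYN1 and MAP2 among them, while NEFM lay between 514.4 and 682.8 RPKM. The neuron marker SNAP25 passed 1.5-fold against GFP (0.1154 RPKM) with wild type (1.381 RPKM, log2 ratio of RPKM + 1 1.09) and T275M (1.218 RPKM, 0.99). Of 6 kidney markers 5 were below 1 RPKM throughout, as were 4 of 5 leukocyte and 3 of 3 endothelial markers. Of 5 epithelial markers 2 were below 1 RPKM throughout, EPCAM and KRT19, while the keratin KRT18 lay between 34.34 and 47.29 RPKM.

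Heat shock factors, with HSF1 as the main one in stressed cells, are transcription factors that bind heat shock elements, short inverted repeats of the unit GAA in gene promoters. At rest, HSF1 is held inactive by chaperones, among them HSP70 and HSP90, and unfolded protein that occupies these chaperones sets it free. The target genes differ in how far they depend on it: HSPA1A, HSPA1B, DNAJB1, HSPH1 and HSPB1 are classed as strongly inducible, whereas HSPA8 and HSP90AB1 are the constitutive members of their families. The comparisons below ask whether loss or excess of DDX3X, wild type or mutant, went with a change in these mRNAs.

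Heat shock element letters are shown first, because they are what a heat shock factor reads. RefSeq promoter windows on GRCh38.p14, each 300 bases long from 250 bases before an annotated start, were found for all 10 genes (16 windows, since several genes have more than 1 start). Searched were 2 inverted units, GAANNTTC or TTCNNGAA, each of which is its own reverse complement, so that 1 search covers both strands. Overlapping or nearby matches were merged for printing, a match of DNAJB1 at bases 1 to 8 after its start 3 is left out, and capitals mark the matched units.
HSPA1A, chr6:31815425-31815456, plus strand: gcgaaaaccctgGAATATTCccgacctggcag
HSPA1B, chr6:31827621-31827652, plus strand: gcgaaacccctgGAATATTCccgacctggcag
HSPA8, chr11:123062167-123062203, minus strand: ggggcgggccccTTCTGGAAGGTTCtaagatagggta
HSPA8, chr11:123062342-123062378, minus strand: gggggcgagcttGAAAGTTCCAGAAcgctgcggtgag
HSP90AA1, chr14:102087093-102087144, minus strand: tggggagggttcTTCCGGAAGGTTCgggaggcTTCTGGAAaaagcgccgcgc
HSP90AB1, chr6:44247766-44247802, plus strand: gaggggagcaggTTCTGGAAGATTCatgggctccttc
HSP90AB1, chr6:44247819-44247855, plus strand: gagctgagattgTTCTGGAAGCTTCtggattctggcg
DNAJB1, chr19:14518455-14518486, minus strand: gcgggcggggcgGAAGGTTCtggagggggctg
DNAJB1, chr19:14518425-14518456, minus strand: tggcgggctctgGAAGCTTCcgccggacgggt
HSPB1, chr7:76302479-76302510, plus strand: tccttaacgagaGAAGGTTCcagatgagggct
HSPD1, chr2:197500056-197500090, minus strand: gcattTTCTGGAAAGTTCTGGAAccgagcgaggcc

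Matches stood in at least 1 window of 8 of the 10 genes. Over all RefSeq promoter windows of the same length, 16.2% of 27305 genes held such a match. HSPH1 and HSPE1 held none, which says only that these letters are not in their windows. A further unit after another gap of 2 bases was present in HSPA8, HSP90AA1, HSP90AB1 and HSPD1, 4 of the 10 genes, against 0.608% of all genes. Counted by window, 2 units stood in 9 of 16 against 13.5% of all windows, and 3 units in 4 of 16 against 0.49%. The 10 genes were chosen as heat shock factor targets, so these shares describe the choice and test nothing. HSPA8 and HSP90AB1, the constitutive members of their families, each carried 2 such elements. HSPA1A and HSPA1B carried the same 8 letters at almost the same place, 106 to 99 and 105 to 98 bases before the start. A match is a description of the letters and not evidence that a factor was bound in these cells.

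**Figure D1:**
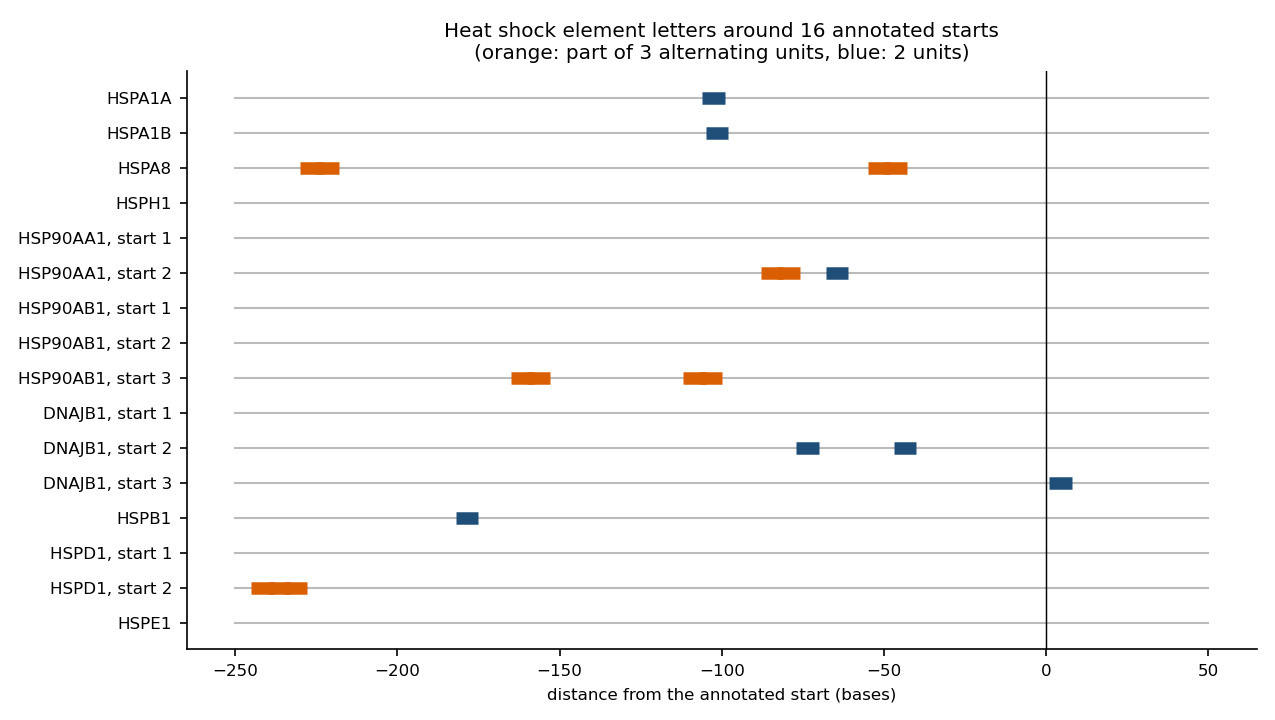
Positions of 2-unit matches (blue) and of matches that are part of 3 alternating units (orange) in 16 promoter windows of the 10 genes, with distance from the annotated start in bases on the x axis. Windows of HSPH1 and HSPE1 are empty, and HSPA8 and HSP90AB1 each carry 2 orange blocks.

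On GRCh37, the build of the deposited tables, the genes lie on 7 chromosomes (GENCODE annotation). HSPA1A (chr6:31783320-31785723) and HSPA1B (chr6:31795515-31798031) are neighbours on the plus strand with 9791 bases between them, and each is a single exon. HSPD1 (chr2:198351308-198381461, minus strand, 12 exons) and HSPE1 (chr2:198364864-198368173, plus strand, 4 exons) are read away from each other, and the starts of their main transcripts lie 539 bases apart. HSP90AB1 (chr6:44213903-44221625, plus strand, 12 exons) shares the chromosome of the HSPA1 pair, and HSP90AA1 (chr14:102547079-102606036, minus strand, 11 exons) is on another. HSPA8 (chr11:122928197-122933938, minus strand) has 9 exons and HSPH1 (chr13:31709110-31736525, minus strand) has 18. DNAJB1 (chr19:14625581-14671203, minus strand) and HSPB1 (chr7:75931990-75933612, plus strand) have 3 exons each.

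All 10 genes were abundant in every library. RPKM is the reads of a row per kilobase of row, scaled to the reads of the library. It divides by row length, so rows of different genes can be set beside each other. It is a share of the RNA of many cells, a culture or its sorted GFP-positive cells, in which fewer cells with an mRNA and less mRNA per cell cannot be told apart. By the row kept for each gene, HSP90AB1 (mean 1023 RPKM over the 6 libraries), HSP90AA1 (1016) and HSPD1 (824.5) led. HSPA1B (692.5) and HSPA8 (692) followed, then HSPE1 (391.9) and HSPA1A (384.2). HSPB1 (116.3), HSPH1 (89.04) and DNAJB1 (50.47) were lowest. The order above these lowest genes depends on how rows and shared reads are counted. With the rows of each gene summed, HSP90AA1 stood above HSP90AB1 in all 6 libraries. With the row of HSPE1 itself (mean 359.9 RPKM), HSPE1 fell below HSPA1A. By the kept rows, HSP90AB1 ranked 76th and DNAJB1 1868th of the 23204 symbols. Together the 10 genes took 1.366% of the reads with control siRNA (Wilson 95% interval 1.363 to 1.369) and 1.216% with DDX3X siRNA (1.215 to 1.218). They took 1.401% with GFP (1.398 to 1.404), 1.234% with GFP-WT DDX3X (1.231 to 1.237), 1.282% with T275M (1.279 to 1.286) and 1.285% with G302V (1.282 to 1.289). The summed share was thus lower than that of its own control in the knockdown library and in all 3 DDX3X plasmid libraries.

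**Figure D2:**
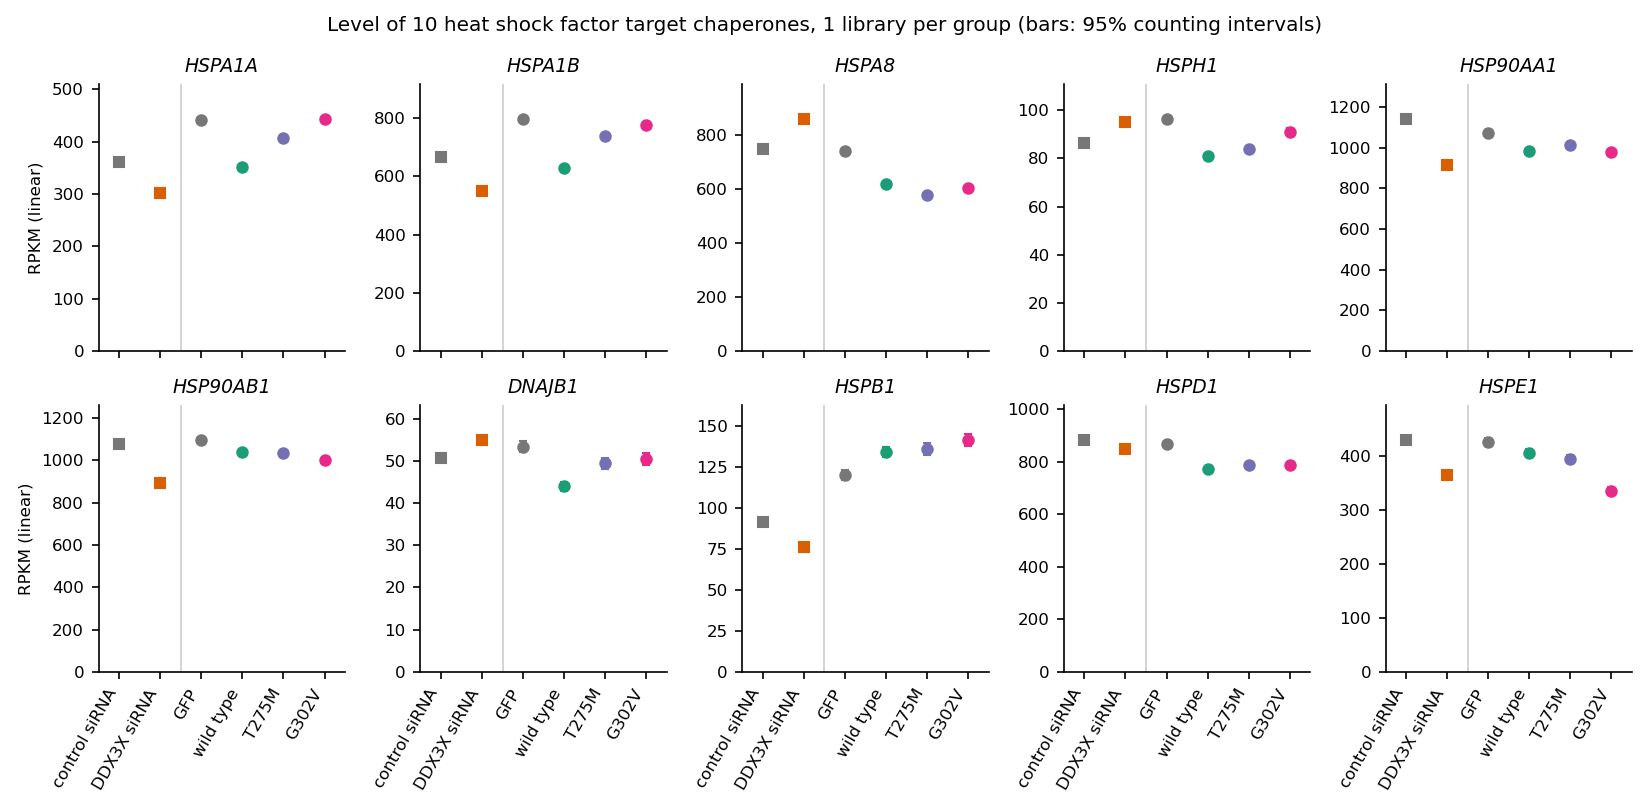
RPKM (linear axis from 0) of each of the 10 genes in the 6 libraries, 1 library per group, squares for the siRNA arm and circles for the plasmid arm, with 95% counting intervals that are mostly smaller than the symbols. The HSPA1 pair is lowest with DDX3X siRNA, HSPA8 is highest there, and HSPB1 is higher in all 4 plasmid libraries (120 to 141.2 RPKM) than in both siRNA libraries (75.79 and 91.27).

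The inducible HSP70 genes came first. HSP70 proteins bind and release unfolded stretches of other proteins with the help of ATP, and HSPA1A and HSPA1B encode nearly the same inducible protein. HSPA1A stood at 361.1 RPKM with control siRNA, 301 with DDX3X siRNA, 442.2 with GFP, 350.9 with GFP-WT DDX3X, 407.2 with T275M and 442.9 with G302V. HSPA1B stood at 666.8, 549.2, 796.2, 627.9, 737.6 and 777 RPKM in the same order. Both genes were lowest in the DDX3X siRNA library and both were lower with wild-type DDX3X than in any other plasmid library. As log2 ratios of (RPKM + 1), the knockdown library differed from its control by -0.26 (95% counting interval -0.28 to -0.25) for HSPA1A and by -0.28 (-0.29 to -0.27) for HSPA1B. Wild type against GFP gave -0.33 (-0.35 to -0.32) and -0.34 (-0.35 to -0.33). T275M against GFP gave -0.12 and -0.11, and G302V against GFP gave 0.00 (-0.02 to 0.02) and -0.04 (-0.05 to -0.02). Between HSPA1A with GFP and with G302V, the neighbours at the top of its order, the difference did not exceed counting error.

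The 2 genes are not independent measurements. Of the 50-base stretches of the HSPA1A transcript, 75.1% also occur in HSPA1B, and the sources used here do not give read length or how reads that matched both were divided. HSPA1A was 0.542 to 0.57 of HSPA1B in all 6 libraries. The pair is therefore best read as 1 signal.

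HSPA8 encodes HSC70, the HSP70 of unstressed cells, which also strips clathrin from vesicles. It stood at 747.8 RPKM with control siRNA, 859.5 with DDX3X siRNA, 741.2 with GFP, 617.6 with GFP-WT DDX3X, 579.6 with T275M and 606 with G302V. It was highest in the knockdown library and lower in each of the 3 DDX3X plasmid libraries than in the other 3. The log2 ratio was 0.20 (0.19 to 0.21) for DDX3X siRNA against its control. It was -0.26 (-0.28 to -0.25) for wild type, -0.35 (-0.37 to -0.34) for T275M and -0.29 (-0.30 to -0.28) for G302V against GFP. The 459 bases by which the longer of its 2 rows exceeds the shorter held 29.9% to 31.9% as many reads as the shorter row in every library.

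HSPH1 (HSP110) and DNAJB1 (HSP40) work with HSP70, the first by exchanging its nucleotide and the second by bringing it clients and starting ATP hydrolysis. HSPH1 stood at 86.6 RPKM with control siRNA, 94.99 with DDX3X siRNA, 96.29 with GFP, 81.18 with GFP-WT DDX3X, 84 with T275M and 91.18 with G302V. DNAJB1 stood at 50.76, 54.9, 53.33, 43.94, 49.4 and 50.48 RPKM in that order. Both were lowest with wild-type DDX3X and, like HSPA8 but unlike the HSPA1 pair, somewhat higher with DDX3X siRNA than with its control. Their log2 ratios there were 0.13 (0.11 to 0.15) for HSPH1 and 0.11 (0.07 to 0.15) for DNAJB1. Wild type against GFP gave -0.24 (-0.27 to -0.21) and -0.27 (-0.32 to -0.22). HSPH1 with GFP and with DDX3X siRNA did not differ beyond counting error, nor did DNAJB1 with control siRNA, G302V and T275M, taken as neighbours in order.

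HSP90 proteins hold kinases, steroid receptors and HSF1 itself in a near-folded state, with HSP90AA1 as the inducible and HSP90AB1 as the constitutive form. HSP90AA1 stood at 1139 RPKM with control siRNA, 915 with DDX3X siRNA, 1069 with GFP, 981.8 with GFP-WT DDX3X, 1013 with T275M and 978.5 with G302V. HSP90AB1 stood at 1078, 891.8, 1095, 1038, 1036 and 999.6 RPKM. For both, the DDX3X siRNA library was the lowest of the 6. Their log2 ratios against control siRNA were -0.32 (-0.32 to -0.31) and -0.27 (-0.28 to -0.26). Against GFP, all 3 DDX3X libraries lay between -0.13 and -0.08 for both genes. Wild type and G302V did not differ beyond counting error for HSP90AA1, nor wild type and T275M for HSP90AB1.

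HSP90AA1 has 2 rows, and the longer includes 521 bases that the shorter lacks. These bases held 4 to 143 reads per library, at most 0.0257% of the reads of the shorter row. Nearly all HSP90AA1 reads thus fell within the shorter row.

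HSPB1 (HSP27) holds unfolded proteins without ATP and binds actin filaments. It stood at 91.27 RPKM with control siRNA, 75.79 with DDX3X siRNA, 120 with GFP, 133.8 with GFP-WT DDX3X, 135.8 with T275M and 141.2 with G302V. It varied most of the 10 genes, with a highest library at 1.86 times the lowest, against 1.14 times for HSPD1, the steadiest. Against GFP it was the 1 gene of the 10 that was higher with wild type, at 0.16 (0.11 to 0.21), and with T275M, at 0.18 (0.13 to 0.23). With G302V it was higher by 0.23 (0.18 to 0.28), and with DDX3X siRNA the ratio was -0.26 (-0.31 to -0.22). Its largest ratio, 0.39 (0.34 to 0.44), was between the 2 controls, GFP and control siRNA. T275M and wild type did not differ beyond counting error.

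HSPD1 and HSPE1 form the chamber and the lid of the mitochondrial chaperonin. HSPD1 stood at 882.4 RPKM with control siRNA, 848.7 with DDX3X siRNA, 868.3 with GFP, 771.9 with GFP-WT DDX3X, 789.3 with T275M and 786.2 with G302V. HSPE1 stood at 428.7, 364.6, 424.9, 405.2, 393.2 and 335 RPKM. HSPD1 was lower in each DDX3X plasmid library than in the other 3 libraries, whereas HSPE1 was lowest with G302V. For HSPD1 the ratios against GFP were -0.17 (wild type), -0.14 (T275M) and -0.14 (G302V), and -0.06 for the knockdown against its control (0.03 under median-ratio scaling, described below). For HSPE1 they were -0.07, -0.11 and -0.34 (-0.38 to -0.30), and -0.23 (-0.26 to -0.21). HSPD1 with T275M and with G302V did not differ beyond counting error, nor did HSPE1 between the 2 controls.

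The HSPE1 row used here has the accession that RefSeq gives to a read-through transcript of HSPE1 and its neighbour MOB4. Its length is 608 bases, and the MOB4 row of that accession lay between 12.73 and 16.41 RPKM, far below HSPE1. The row of HSPE1 itself, 953 bases long, gave 387.4, 344.3, 389, 364.5, 356.8 and 317.3 RPKM in the same order of libraries. With it, the ratio of G302V against GFP was -0.29. Of the 50-base stretches of HSPE1, 48.2% occur in another annotated gene, 28.3% of all in the read-through gene of the same locus, and others in pseudogene copies. For HSPD1 the share is 27.1%, with 18.4% in the pseudogene HSPD1P1. How reads shared with such copies were placed is not given in the sources used here.

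Knockdown of DDX3X asked whether loss of the helicase changed these mRNAs. Of the 10 genes, 3 were higher (HSPA8, HSPH1 and DNAJB1) and 7 lower than with control siRNA, with a median log2 ratio of -0.25 and a range of -0.32 to 0.20. Every counting interval left out 0. Median-ratio scaling, which lines up the libraries by the middle of their gene ratios in place of total reads, made it 4 and 6. The median was -0.02 over the 12694 genes tested, and -0.09 over the 1887 genes with a mean of 50 RPKM or more (here called abundant), a floor that all 10 pass. A gene was called at 1.5-fold when its interval also left out 0, and at 2-fold as the stricter rule. None of the 10 was called by either rule, against 1.96% of all genes at 1.5-fold and 0.11% at 2-fold. At such shares, 0 of 10 is near the background. The difference of HSP90AA1 from its control, the largest of the 10, was matched or exceeded in size by 11.3% of the abundant genes.

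Excess wild-type DDX3X was compared with GFP. In this library 9 of the 10 genes were lower and HSPB1 was higher, with a median of -0.21 (range -0.34 to 0.16), beside 0.05 over 12915 genes and -0.07 over the abundant genes. Again 0 of 10 were called, at a background of 2.06% at 1.5-fold and 0.248% at 2-fold. HSPA1A and HSPA1B lay farthest from 0, and 3.18% and 3.02% of the abundant genes lay as far or farther. HSPA8 (6.68%), DNAJB1 (5.62%) and HSPH1 (8.74%) followed. The genes nearest to 0 were HSPE1 (-0.07) and HSP90AB1 (-0.08).

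T275M against GFP gave 1 gene higher (HSPB1) and 9 lower, a median of -0.11 (range -0.35 to 0.18), beside 0.07 over 12912 genes and -0.13 over the abundant ones. No gene of the 10 was called, at a background of 2.56% at 1.5-fold and 0.372% at 2-fold. G302V against GFP gave 2 higher and 8 lower (1 and 9 under median-ratio scaling), with a median of -0.10 (range -0.34 to 0.23), beside 0.03 over 12775 genes and -0.13 over the abundant ones. None was called, at 1.6% and 0.305%. In both mutant libraries, then, the median of the chaperones lay close to that of genes of 50 RPKM or more, a set that reaches well below the level of most of the 10. The 3 comparisons share the GFP library, so an unusual value there enters all of them.

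**Figure D3:**
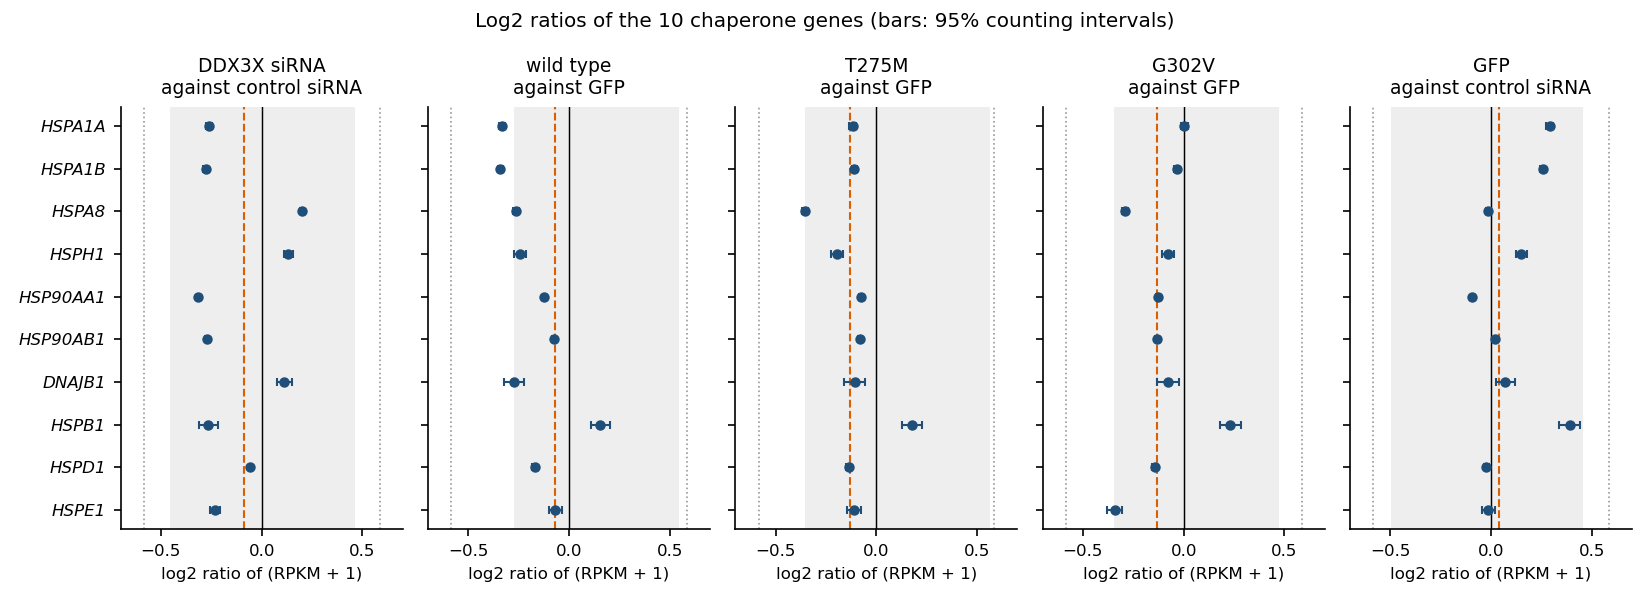
Log2 ratios of (RPKM + 1) of the 10 genes in 5 comparisons, with 95% counting intervals. The grey band holds the central 95% of all genes tested, the orange line is the median of genes with a mean of 50 RPKM or more, and dotted lines mark 1.5-fold. No gene reaches a dotted line, and HSPB1 lies to the right of the other 9 in each comparison with GFP.

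Mutants were also set beside wild type directly. T275M against wild type gave 7 genes higher and 3 lower (8 and 2 under median-ratio scaling), a median of 0.04 (range -0.09 to 0.23), with 0 of 10 called at a background of 0.216% at 1.5-fold and 0.0771% at 2-fold. HSPA1A (0.21, 0.20 to 0.23) and HSPA1B (0.23, 0.22 to 0.24) led, then DNAJB1 (0.17, 0.11 to 0.22). The other 7 lay between -0.09 and 0.05. G302V against wild type gave 6 higher and 4 lower (9 and 1 when rescaled so), a median of 0.05 (range -0.27 to 0.34), and 0 of 10 called, at 1.55% and 0.185%. HSPA1A (0.34, 0.32 to 0.35) and HSPA1B (0.31, 0.29 to 0.32) led here too, followed by DNAJB1 (0.20) and HSPH1 (0.17), while HSPE1 was at -0.27. Both rest on the 1 wild-type library, in which these 4 inducible genes were lowest of the plasmid arm. G302V against T275M gave 6 higher and 4 lower (9 and 1 when rescaled), a median of 0.04 (range -0.23 to 0.12) and 0 of 10 called, at 1.01% and 0.178%.

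The 2 controls show how far these genes differed between the arms with no DDX3X manipulation. GFP against control siRNA gave 6 genes higher and 4 lower (8 and 2 under median-ratio scaling), a median of 0.05 (range -0.09 to 0.39) and 0 of 10 called, at 2.15% and 0.503%. HSPB1 (0.39), HSPA1A (0.29, 0.28 to 0.31), HSPA1B (0.26, 0.24 to 0.27) and HSPH1 (0.15) were higher with GFP. The difference of HSPB1 between the controls exceeded each of its differences from an own control, and those of the HSPA1 pair were about as large as their differences in the knockdown library. Transfected agent, time in culture and sorting differ between these libraries together and cannot be told apart.

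Ratios between genes within 1 library do not depend on how libraries are scaled. HSPA1A plus HSPA1B stood to HSPA8 as 1.37 with control siRNA, 0.989 (0.985 to 0.994) with DDX3X siRNA, 1.67 with GFP, 1.58 with GFP-WT DDX3X, 1.98 with T275M and 2.01 (1.99 to 2.03) with G302V. The ratio was lowest in the knockdown library. Whether the pair stood above or below HSPA8 depends on how rows and shared reads are counted, since HSPA1B alone was below HSPA8 with control siRNA, and the sum of all rows of each gene, which counts the shared reads of HSPA8 more than once, gave 0.702, 0.859 and 0.81 with control siRNA, GFP and wild type. Among the plasmid libraries the ratio was higher with both mutants than with GFP or wild type. Against GFP, HSPA8 was lower with T275M and G302V (579.6 and 606 against 741.2 RPKM). HSPA1A (407.2 and 442.9 against 442.2) and HSPA1B (737.6 and 777 against 796.2) were level or lower there. HSPB1 against HSPA8 gave 0.122, 0.0882, 0.162, 0.217, 0.234 and 0.233 in the same order, higher in each DDX3X plasmid library than with GFP. In each of these libraries HSPA8 was lower and HSPB1 higher than with GFP. HSPH1 against HSPA8 was 0.13 with GFP and 0.131, 0.145 and 0.15 with wild type, T275M and G302V. DNAJB1 against HSPA8 was 0.0719, 0.0712, 0.0852 and 0.0833 in that order. Ratios of HSPB1, HSPH1 and DNAJB1 to HSPA8 were not among those planned.

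HSP90AA1 against HSP90AB1 stood at 1.06 with control siRNA and 1.03 with DDX3X siRNA and between 0.946 and 0.979 in the plasmid arm. With the rows of each gene summed it was 1.76 to 1.97 in all 6 libraries, so no order of the 2 forms is drawn. HSPD1 against HSPE1 was 2.06, 2.33, 2.04, 1.9, 2.01 and 2.35, highest with G302V and with DDX3X siRNA. The summed rows gave 2 to 2.4 for it.

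**Figure D4:**
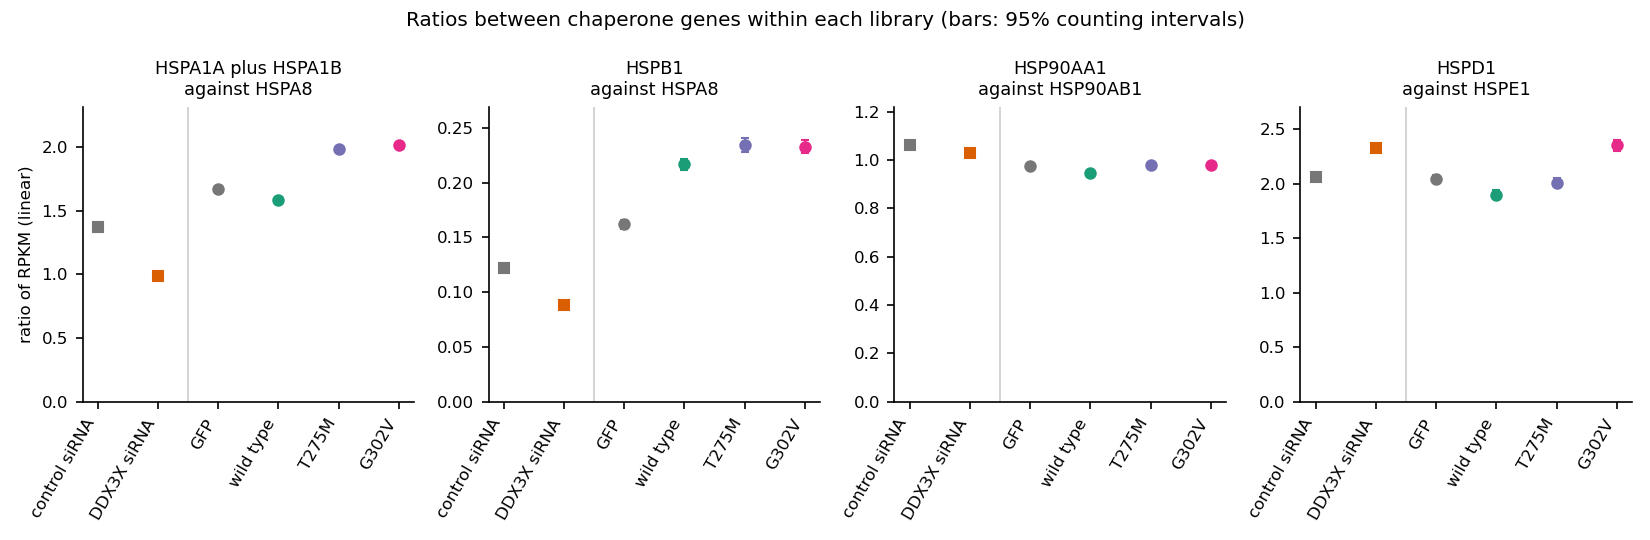
Ratios of RPKM between chaperone genes within each of the 6 libraries (linear axes from 0), with 95% counting intervals. The HSPA1 pair against HSPA8 is lowest with DDX3X siRNA (0.989) and highest with G302V (2.01), whereas HSP90AA1 against HSP90AB1 stays between 0.946 and 1.06.

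The factors that drive these genes were measured too. HSF1 stood at 43.03 RPKM with control siRNA, 52.31 with DDX3X siRNA, 50.27 with GFP, 43.64 with GFP-WT DDX3X, 45.22 with T275M and 48.01 with G302V. Of 12 heat shock factors and regulators tested, none was past 1.5-fold with DDX3X siRNA (median 0.13) and 1 was in each comparison with GFP (medians 0.06, 0.11 and 0.09). Median-ratio scaling shifts these comparisons by -0.10, -0.10 and -0.04, so no direction is drawn from the medians. The shares of all genes past 1.5-fold were 1.96% (DDX3X siRNA), 2.06% (wild type), 2.56% (T275M) and 1.6% (G302V). With 12 genes, 0 or 1 call cannot be told from such shares. FBXW7, a ubiquitin ligase subunit that marks HSF1 among other proteins, was higher with wild type (8.017 against 4.865 RPKM, log2 ratio 0.62, 0.53 to 0.71) and with T275M (9.57 RPKM, 0.85, 0.75 to 0.94). EP300, an acetyltransferase, was higher with G302V (20.48 against 12.88 RPKM, 0.63, 0.58 to 0.68). HSF1 is regulated largely as a protein, which these data do not measure.

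Other cytosolic chaperones and cochaperones were counted in the same way. Of 36 listed, 32 were tested and 4 were below 1 RPKM in all 6 libraries, the strictly inducible HSPA6 among them (0.1061 to 0.3369 RPKM). With DDX3X siRNA 6 were higher and 26 lower (median -0.16), and 1 passed 1.5-fold. It was BAG1, a nucleotide exchange factor of HSP70, at 20.86 against 11.56 RPKM (log2 ratio 0.80, 0.75 to 0.85). With wild type 12 were higher and 20 lower (median -0.07) and none passed. T275M gave 14 and 18 (median -0.05) with DNAJB4, an HSP40, past 1.5-fold (10.46 against 6.105 RPKM, 0.69, 0.57 to 0.81), and G302V gave 9 and 23 (median -0.07) with none. Over all genes the shares past 1.5-fold were 1.96% (DDX3X siRNA), 2.06% (wild type), 2.56% (T275M) and 1.6% (G302V). At such shares, 0 or 1 of 32 is near the background.

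The TCP1 ring, the cytosolic chaperonin that folds actin and tubulin, has 8 subunit genes. All 8 were lower with DDX3X siRNA than with its control (median -0.25, range -0.34 to -0.15) and all 8 were lower with each DDX3X plasmid than with GFP (medians -0.10, -0.18 and -0.22). Of the genes with a mean of 50 RPKM or more, 68.2% were lower with DDX3X siRNA (median -0.09) and 71.5%, 81% and 82.2% were lower with wild type, T275M and G302V (medians -0.07, -0.13 and -0.13). None of the 8 subunit genes passed 1.5-fold in any of the 8 comparisons, at backgrounds of 0.216% to 2.56% of all genes. Between the 2 controls 5 were higher and 3 lower (median 0.04). Other mitochondrial chaperones and proteases, 14 genes, had medians of -0.06 (DDX3X siRNA), -0.06, -0.09 and -0.07 (wild type, T275M and G302V against GFP), with none past 1.5-fold. The shift of median-ratio scaling with DDX3X siRNA, 0.08, takes the first of these to the other side of 0.

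Chaperones of the endoplasmic reticulum answer to another stress pathway, the unfolded protein response. With DDX3X siRNA 13 of 14 were higher than with its control (median 0.21, range -0.04 to 0.38). Of the 10 heat shock factor targets 3 were higher and 7 lower, near the 68.2% lower among genes with a mean of 50 RPKM or more. In the plasmid arm the medians of the endoplasmic reticulum list were -0.09, -0.08 and 0.03, the last of them within the scaling shift of -0.04. Between the controls all 14 were lower with GFP (median -0.35, range -0.52 to -0.07). None of the 14 passed 1.5-fold in any comparison, at backgrounds of 0.216% to 2.56%. Their summed level ran from 1807 RPKM (wild type) to 2863 RPKM (DDX3X siRNA).

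**Figure D5:**
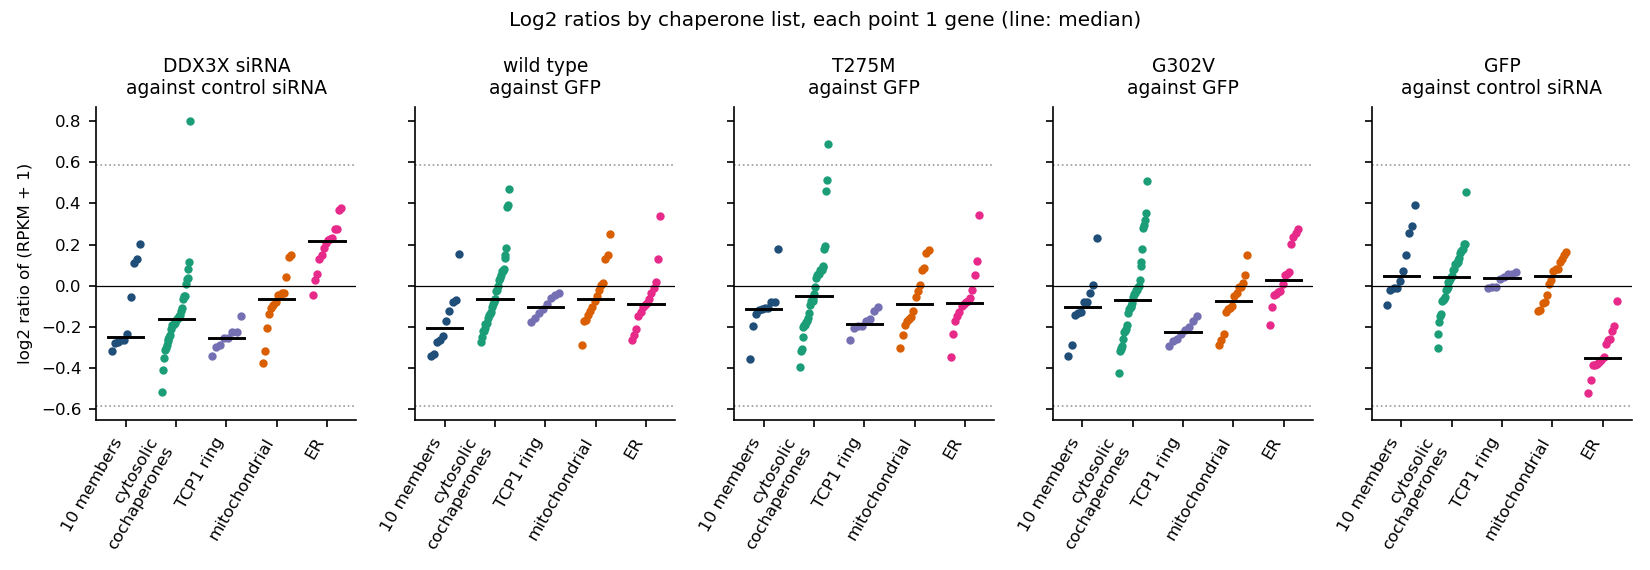
Log2 ratios of (RPKM + 1) by gene list in 5 comparisons, each point 1 gene tested, lines at list medians and dotted lines at 1.5-fold. The endoplasmic reticulum list (ER) lies above 0 with DDX3X siRNA (median 0.21) and below it between the controls (median -0.35), while the 10 chaperones have medians of -0.25 and 0.05 there.

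Immediate-early genes respond to handling of cells within minutes. Their summed level over 8 genes was 137.2 RPKM with control siRNA and 164 with DDX3X siRNA. It was 279.4 with GFP, 352.8 with GFP-WT DDX3X, 369.4 with T275M and 293.5 with G302V. All 4 plasmid libraries were thus above both siRNA libraries. Transfected agent, time in culture and sorting differ together between the arms and cannot be told apart here. EGR1 stood at 0.5573 RPKM with control siRNA and 58.94 with GFP, and at 23.59 with G302V (log2 ratio against GFP -1.29, -1.34 to -1.23). FOS stood at 1.153, 22.97 and 9.18 RPKM in these libraries (-1.24, -1.34 to -1.13 for G302V). ATF3 was higher than with GFP (23.79 RPKM) with wild type (39.62 RPKM, 0.71), T275M (46.71 RPKM, 0.94) and G302V (38.07 RPKM, 0.66). In T275M JUN (167.1 against 103.6 RPKM, 0.68) and DUSP1 (43.99 against 27.94 RPKM, 0.64) were also higher. FOSB (2.24 RPKM with GFP) was lower with T275M (0.8966 RPKM, -0.77) and G302V (0.5149 RPKM, -1.10). Of 8 genes tested, 1 was higher past 1.5-fold with wild type. With T275M 3 were higher and 1 lower, and with G302V 1 was higher and 3 lower. The shares of all genes past 1.5-fold were 2.06%, 2.56% and 1.6%. The part of immediate-early genes in the chaperone values of the plasmid arm was not tested.

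Genes with the most similar course over the 6 libraries were sought among 6692 genes of 10 RPKM or more. Likeness was the root mean square difference between centred log2 profiles. The mean profile of the 10 chaperones spans 0.23 and lies 0.070 from a flat line. Closest to it were PFKM, DCTN1, ANP32E, EHD1 and WDR4, at 0.022 to 0.024. For HSPB1, the member with the widest profile (range 0.89, 0.330 from flat), they were AES (0.048), DLX2, SMARCA1, CHKB and ID2 (0.079 to 0.091). AES ran from 34.43 RPKM with DDX3X siRNA to 60.63 RPKM with T275M. With 6 points that share their libraries, such likeness is a description only.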

How the data were processed

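Total RNA of 6 HEK293T cultures was made into TruSeq libraries and sequenced. The deposited values are RPKM, per the file headers. The authors trimmed reads with cutadapt, aligned them with BWA 0.5.5 to NCBI Build 37, RefSeq, exon junctions and AceView, kept the best alignment, removed duplicates and divided reads per gene by gene length and total reads. Read length and the treatment of reads shared by near-identical genes are not given in the sources used here. Each table holds 39618 rows, and a symbol was represented by its row of greatest average RPKM.

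Reads were recovered from RPKM and row length, because 100% of the rows that could be checked lay within 0.1 of a whole multiple of 1 step. Log2 ratios are differences of log2(RPKM + 1), and a pseudocount of 1 understates changes of low genes. A gene was tested with 1 RPKM or more and 10 reads or more in at least 1 of the 2 libraries. All 10 members passed in all 8 comparisons, on 4928 to 556543 reads each. Intervals of log2 ratios are exact (Clopper-Pearson, 95%) and those of read shares are Wilson's. They cover counting error only, because no group has a second library. Reads that carry no molecular identifier may also be copies of one molecule, which the intervals do not allow for. A count model was not fitted, since each group holds 1 library.

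The members and gene lists were chosen with earlier results of these data known. Named were all members, DDX3X, and of each list the genes past 1.5-fold against their own control, at most 2 rises and 2 falls per comparison. HSF1, HSPA6, markers, the levels of EGR1 and FOS between controls, DUSP1 with T275M and FOSB with G302V were added after their values were seen. Like profiles were the 5 closest genes with rows of 200 bases or longer. Alternatives were median-ratio scaling, a pseudocount of 0.1 or 10, a 10 RPKM minimum, a filter of 1 read alone, the sum of rows per symbol and 3 element units. The HSPE1 row of its own accession and the medians over genes of 50 RPKM or more were added after seeing the data. Depth recovery and intervals were tested on simulated reads that held counting error alone. Such a test checks the calculation and says nothing of shared reads, duplicates or replicate spread. The list of DDX3X binding peaks was not used here. Python 3.11.15, numpy 2.4.6, pandas 2.3.3, scipy 1.17.1 and matplotlib 3.10.9 were used.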

Additional observations from a re-analysis of the deposited data

How the results depend on the processing

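No paired analysis was possible because each group holds 1 library, and for the same reason no library could be left out. The number of chaperones past 1.5-fold was 0 of 10 in all 8 comparisons under all alternatives. Their median log2 ratio moved beyond counting error under median-ratio scaling, which shifts every gene of a comparison by one amount: -0.17 (shift 0.08) for DDX3X siRNA against control siRNA, -0.31 (-0.10) for wild type, -0.21 (-0.10) for T275M and -0.14 (-0.04) for G302V against GFP, 0.11 (0.06) for G302V against wild type and 0.10 (0.06) for G302V against T275M. Under it HSPD1 turned from -0.06 to 0.03 with DDX3X siRNA. HSPA1A turned from 0.00 to -0.04 with G302V against GFP. In G302V against wild type HSPA8 turned to 0.03, HSP90AA1 to 0.06 and HSP90AB1 to 0.01. In G302V against T275M both HSP90 genes turned to 0.01 and HSPD1 to 0.05. HSP90AB1 in T275M against wild type, and HSPA8 and HSPE1 between the controls, turned at ratios that print as 0.00 on the other side. With the other HSPE1 row, HSPE1 turned from -0.01 to 0.01 between the controls.

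Summing the rows of a symbol counts shared reads more than once and moved the ratios within libraries. In the order control siRNA, DDX3X siRNA, GFP, wild type, T275M and G302V, the HSPA1 pair against HSPA8 became 0.702, 0.506, 0.859, 0.81, 1.01 and 1.03. HSP90AA1 against HSP90AB1 became 1.97, 1.91, 1.82, 1.76, 1.83 and 1.83. HSPD1 against HSPE1 became 2.15, 2.38, 2.12, 2, 2.09 and 2.4.

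Over all genes, the number past 1.5-fold ran from 28 to 331 over the 8 comparisons, and past 2-fold from 10 to 64. With a pseudocount of 0.1 it was 72 to 719 and 25 to 149, with 10 it was 0 to 59 and 0 to 21, and with a minimum of 10 RPKM it was 12 to 135 and 1 to 43. Summed rows gave 38 to 450 and 12 to 70, and no filter beyond 1 read gave 31 to 345 and 15 to 67. Median-ratio scaling changed the share of higher among the genes past 1.5-fold from 51.8% to 73.8% (DDX3X siRNA), 91.7% to 80.3% (wild type), 86.7% to 68.4% (T275M), 60.5% to 50% (G302V against GFP) and 15.4% to 28% (G302V against wild type). With 3 units in place of 2, 4 genes in place of 8 carried a heat shock element.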
